A study of Mus musculus with 6 samples.

Results

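Transcripts of IgA, the secreted antibody of mucosal surfaces, and of the plasma cells that make it were followed together with Pigr in mouse lung cells sorted by flow cytometry. The set holds 9 genes, Jchain, Igha, Ighm, Iglv1, Mzb1, Derl3, Tnfrsf17, Tnfrsf13b and Pigr, of 18193 genes that a probe set of the array names alone. They were chosen by their signal differences between the adult and E18 arrays, so that contrast is a description here and has no test. Every probe set listed with 1 of the 9 symbols was taken, which gave 24.

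The adult group was 3 samples of cells positive for Lyz2 and EpCAM from adult lungs, and the E18 group was 3 samples of cells sorted for Muc1 and Pdpn out of E18 lungs, embryonic day 18. The series calls the adult cells ATII, alveolar type II cells, which make surfactant, and the E18 cells BP, bipotent progenitors of the alveolar lineages. Age and sorted population differ together, and how Lyz2 was read in the sort, the strain, the sex and any pooling of animals were not given in the sources used here. Each sample was labelled a biological replicate and was hybridised to 1 Affymetrix 3' expression array.

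IgA is secreted as dimers held together by the joining chain, which Jchain encodes. Plasma cells below the epithelium assemble it in an expanded endoplasmic reticulum. The polymeric immunoglobulin receptor, encoded by Pigr, binds the joining chain at the base of epithelial cells, carries the antibody across and releases it into the lumen with a piece of the receptor attached.

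Jchain, Igha, Mzb1 and the brightest probe sets of Ighm and Iglv1 stood high in all 3 adult arrays, and their lowest adult value lay above their highest E18 value. Pigr stood clearly above the floor in adult replicate 3 only. Tnfrsf13b did not differ in mean between the groups. By the brightest probe set per gene, the adult and E18 arrays did not overlap for 8 of the 9 genes, each higher in the adult arrays, and 9.60% of all 18193 genes were higher in the adult arrays without overlap. By probe set it was 19 of 24, against 8.67% of all 34945 probe sets. The 9 genes were chosen for this contrast, so nothing is read from these counts.

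Signals are given on the log2 scale, differences are adult minus E18, and the detection floor of an array is the 40th percentile of its probe sets, a rank and not a measured background. The floor lay at 5.80, 5.40 and 6.05 in adult replicates 1, 2 and 3 and at 5.74, 5.65 and 6.10 in E18 replicates 1, 2 and 3. Of the 9 genes, 8 reached the floor on at least 3 arrays and entered the fit over 13335 genes, and Pigr did not. Levels of different probe sets are not comparable with each other.

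Some arrays stood apart from the rest of their group. Poly-A spike-in probe sets averaged 14.17 in adult replicate 3 and 8.30 and 9.61 in adult replicates 1 and 2, against 13.66 in E18 replicate 3 and 7.42 and 6.87 in E18 replicates 1 and 2, so differences are also given within replicates 1 and 2 and within replicate 3. The ratio of 3' to 5' signal for Actb, a measure of RNA integrity and of amplification, was 11.7 in adult replicate 1 and 1.35 to 1.55 in the other 5 arrays. For Gapdh the same ratio was 24.6 in adult replicate 1 and 4.7 to 6.18 in the other 5 arrays, so it was raised on every array. Of the genes named in the sorts, Lyz2 (-2.86, SE 0.25, adjusted p = 0.00303) and Pdpn (-2.27, SE 0.29, adjusted p = 0.00924) were lower in the adult arrays, Lyz2 against the direction of its sort, while Muc1 and Epcam did not pass. Epcam, also a gene of the adult sort, stood at 7.85, 8.50 and 10.68 in adult replicates 1, 2 and 3, against 10.69, 11.31 and 9.26 in the E18 arrays. Without adult replicate 3 all 4 sort genes were lower in the adult arrays. The Pdpn call was lost without E18 replicate 1 or E18 replicate 2. Alveolar type II and general epithelial genes were at or above the floor in both groups, 16, 16 and 17 of 17 in adult replicates 1, 2 and 3 and 16 of 17 in each E18 array.

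Jchain was the member with the largest difference by its brightest probe set. It stood at 14.17, 14.22 and 14.66 in adult replicates 1, 2 and 3, against 4.08, 4.90 and 9.27 in E18 replicates 1, 2 and 3. The adult arrays lay within 0.5 log2 units of each other, whereas E18 replicates 1 and 2 were under the floor and E18 replicate 3 was 3.18 above it. The means were 14.35 ± 0.27 in adult and 6.08 ± 2.79 in E18 arrays (SD, n = 3 each), a difference of 8.27. It was 9.71 in replicates 1 and 2, 5.38 in replicate 3, 9.86 without E18 replicate 3 and 7.46 with low values raised to the floor. In these bulk samples, fewer cells of a type and less RNA per cell cannot be told apart.

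Igha encodes the constant region of the IgA heavy chain, and its 3 probe sets gave the same picture. Probe set 1429381_x_at stood at 14.48, 14.40 and 14.58 in adult replicates 1, 2 and 3, against 6.74, 6.25 and 10.96 in E18 replicates 1, 2 and 3. For 1421653_a_at the values were 15.19, 14.40 and 14.28 in the adult arrays and 5.24, 4.91 and 11.99 in the E18 arrays. For 1425763_x_at they were 15.12, 14.69 and 14.53 in the adult arrays and 3.30, 5.29 and 11.18 in the E18 arrays. E18 replicate 3 was the highest E18 array in all 3 probe sets, and every adult array was above it. The differences of means were 6.50, 7.24 and 8.19, with 3.62, 2.29 and 3.35 in replicate 3 alone, against 7.95, 9.72 and 10.62 within replicates 1 and 2. For 1421653_a_at and 1425763_x_at the E18 values of replicates 1 and 2 were under the floor, and with low values raised to it the differences of means were 6.83 and 7.26. The suffix _x_at marks probe sets that share probes with other transcripts, and immunoglobulin genes have near-identical relatives, so none of these probe sets can be taken as specific to 1 gene.

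**Figure D1:**
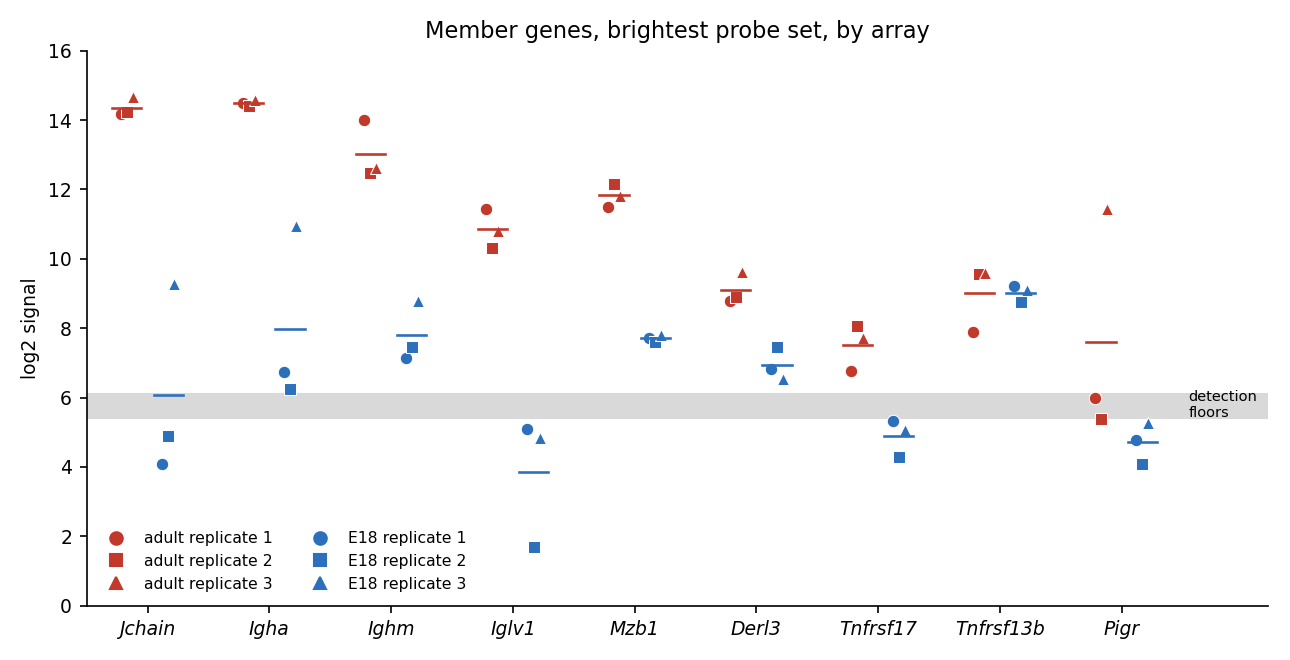
Log2 signal (y axis) of the brightest probe set of each of the 9 genes (x axis) in adult arrays (red) and E18 arrays (blue), with replicates 1, 2 and 3 as circles, squares and triangles, group means as short lines and the range of the 6 detection floors as a grey band. Jchain, Igha and Mzb1 sit above 11 in every adult array, Jchain and Igha are at 9.27 and 10.96 in E18 replicate 3, and Pigr reaches 11.45 in adult replicate 3 only.

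Light chain probe sets were brighter in the adult arrays as well, but those of Iglv1 stayed under the floor in E18 replicate 3. Iglv1 encodes a lambda variable segment, and its brightest probe set stood at 11.43, 10.32 and 10.81 in adult replicates 1, 2 and 3, against 5.08, 1.69 and 4.83 in the E18 arrays, all 3 under the floor, so its mean signal was at least 32.5-fold higher in the adult arrays. A further Iglv1 probe set, 1430523_s_at, stood at 8.32, 9.43 and 10.26 in the adult arrays and at 2.69, 2.96 and 3.04 in the E18 arrays, at least 11.4-fold higher. The last, 1427292_at, reached the floor on 1 adult array and on 0 E18 arrays, and its difference of 3.06 shrank to 0.06 with low values raised to the floor. Of 13 immunoglobulin probe sets listed with several genes, 3 are listed with 5 kappa genes each. They stood between 13.72 and 15.08 in the adult arrays and between 5.81 and 7.81 in E18 replicates 1 and 2, and at 9.97, 11.06 and 10.83 in E18 replicate 3.

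Ighm encodes the constant region of the IgM heavy chain, and its 11 probe sets did not behave as 1 gene. The brightest, 1427351_s_at, stood at 14.00, 12.48 and 12.63 in adult replicates 1, 2 and 3, against 7.14, 7.45 and 8.78 in E18 replicates 1, 2 and 3, a difference of 5.25. Probe set 1427329_a_at had a difference of 3.89, with adult replicate 3 at 11.17 close to adult replicate 1 at 11.29. In 6 other probe sets adult replicate 3 lay more than 3 log2 units above the mean of adult replicates 1 and 2. For 1425247_a_at the values were 8.12, 8.56 and 13.19 in adult replicates 1, 2 and 3, against 5.68, 5.31 and 6.38 in the E18 arrays. For 1425385_a_at they were 10.23, 10.16 and 14.33 in the adult arrays and 4.90, 4.92 and 7.76 in the E18 arrays. For 1427756_x_at they were 6.41, 7.27 and 11.98 in the adult arrays and 3.31, 1.52 and 3.78 in the E18 arrays, all 3 under the floor.

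Adult replicate 3 therefore had more signal than the other adult arrays in these 6 probe sets, while its Igha and Jchain signals were close to theirs. The array table lists these probe sets under Ighm, and which heavy chain segments they detect cannot be read from that table. Ighg3, the constant region of an IgG heavy chain, stood at 7.13, 5.18 and 10.85 in adult replicates 1, 2 and 3 and at 3.15, 1.79 and 6.40 in E18 replicates 1, 2 and 3. Its difference of 3.94 did not pass (SE 1.63, adjusted p = 0.215), and its values were known when it was picked. Of the 11 Ighm probe sets, 5 were under the floor on all E18 arrays, so their differences are not exact. Without overlap 8 of the 11 were higher in the adult arrays, against 8.67% of all 34945 probe sets. Ighm was chosen for this contrast and its probe sets are not separate genes, so nothing is read from this count.

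**Figure D2:**
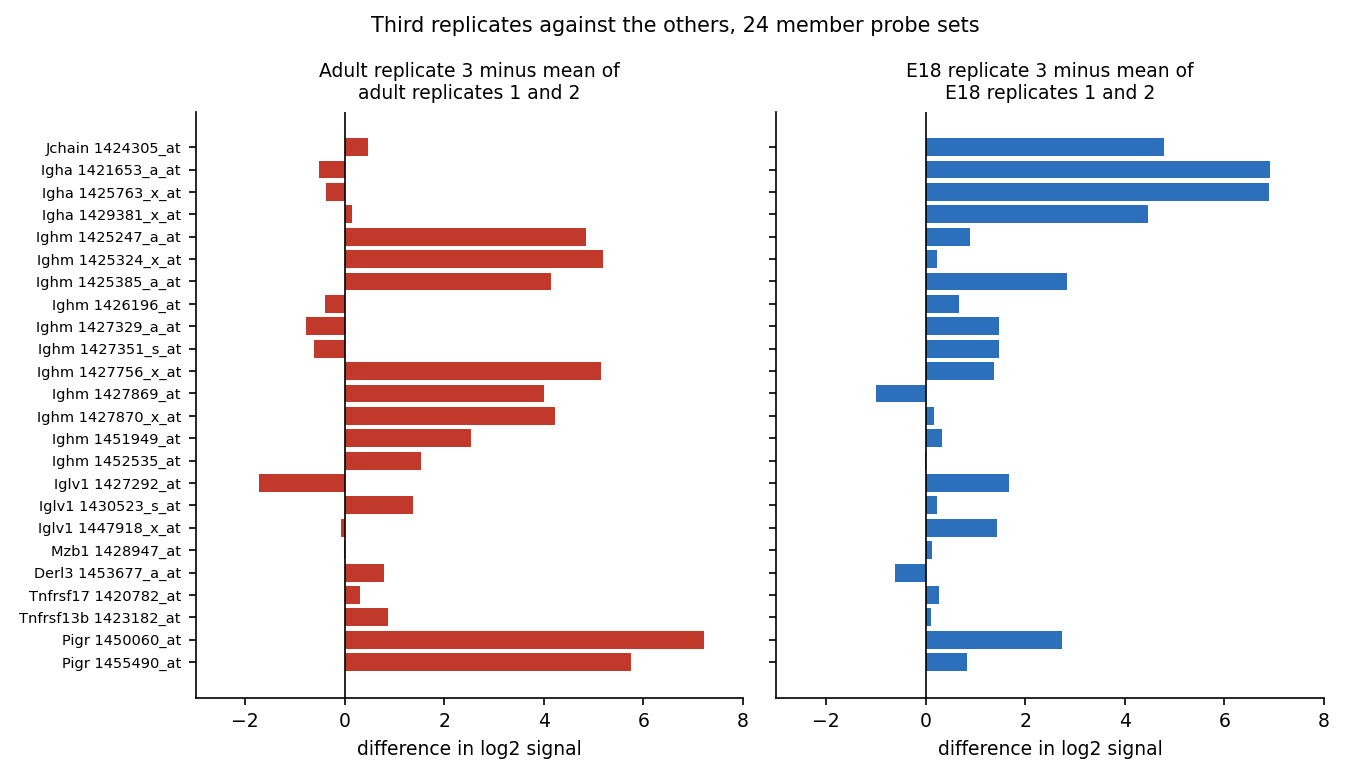
Difference in log2 signal (x axis) between replicate 3 and the mean of replicates 1 and 2 for each of the 24 probe sets (y axis), in the adult group (left, red bars) and in the E18 group (right, blue bars). In the adult group the long bars belong to Ighm, up to 5.19, and Pigr, 5.76 and 7.21, and in the E18 group to Jchain, 4.79, and Igha, 4.46 to 6.91.

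Mzb1 and Derl3 encode proteins of the secretory machinery. Mzb1 is a chaperone-like protein of the endoplasmic reticulum that assists antibody assembly in B and plasma cells. It stood at 11.50, 12.16 and 11.82 in adult replicates 1, 2 and 3, against 7.72, 7.61 and 7.80 in E18 replicates 1, 2 and 3. The difference of 4.11 was 17.3-fold and was nearly the same within replicates 1 and 2 (4.16) and within replicate 3 (4.02). Derl3, a derlin of the pathway that removes misfolded proteins from the endoplasmic reticulum, stood at 8.78, 8.89 and 9.63 in the adult arrays, against 6.83, 7.46 and 6.54 in the E18 arrays, a difference of 2.15. Neither gene was raised in E18 replicate 3, which differed from the mean of E18 replicates 1 and 2 by 0.13 for Mzb1 and -0.61 for Derl3, against 4.79 for Jchain.

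Tnfrsf17 and Tnfrsf13b encode receptors for the survival factors BAFF and APRIL. Tnfrsf17, known as BCMA and typical of plasma cells, stood at 6.78, 8.05 and 7.72 in adult replicates 1, 2 and 3, against 5.32, 4.30 and 5.07 in the E18 arrays. All 3 E18 values were under the floor, and the adult mean was at least 3.22-fold higher. Tnfrsf13b, known as TACI, stood at 7.90, 9.56 and 9.60 in the adult arrays, against 9.21, 8.76 and 9.09 in the E18 arrays. Its means were 9.02 ± 0.97 in adult and 9.02 ± 0.23 in E18 arrays (SD, n = 3 each), the groups overlapped, and it was the only one of the 9 genes with no difference in mean by its brightest probe set.

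The promoters of 5 of the 9 genes matched the RefSeq table of assembly GRCm38.p6, and the 250 bases before the start of Jchain, Derl3 and Pigr are shown, as the member with the largest difference, a member of the secretory machinery and the epithelial receptor. Capitals mark the E-box CACGTG and the endoplasmic reticulum stress element, CCAAT and CCACG with any 9 bases between, searched on both strands.
Jchain, chr5:88527898-88528147, minus strand: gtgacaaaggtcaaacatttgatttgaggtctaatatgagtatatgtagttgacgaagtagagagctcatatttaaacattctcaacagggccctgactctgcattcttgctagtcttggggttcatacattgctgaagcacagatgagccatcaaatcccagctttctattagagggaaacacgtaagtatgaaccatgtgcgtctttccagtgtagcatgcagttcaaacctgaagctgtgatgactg
Derl3, chr10:75893148-75893397, plus strand: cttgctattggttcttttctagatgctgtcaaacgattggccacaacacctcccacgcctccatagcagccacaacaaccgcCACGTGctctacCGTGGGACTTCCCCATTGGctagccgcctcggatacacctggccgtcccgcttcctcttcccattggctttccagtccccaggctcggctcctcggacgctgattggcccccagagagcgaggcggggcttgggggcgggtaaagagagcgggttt
Pigr, chr1:130826434-130826683, plus strand: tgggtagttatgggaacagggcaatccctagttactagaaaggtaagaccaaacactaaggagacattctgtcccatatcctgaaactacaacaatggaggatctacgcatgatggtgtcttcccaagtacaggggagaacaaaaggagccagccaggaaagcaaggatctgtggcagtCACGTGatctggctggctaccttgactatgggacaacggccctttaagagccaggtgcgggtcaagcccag
The Derl3 window held 1 E-box, starting 168 bases before the start, and 1 stress element, written there as CGTGGGACTTCCCCATTGG and starting 156 bases before it, and they did not overlap. The Pigr window held 1 E-box, starting 71 bases before the start, and the Jchain window held neither. Of 32851 promoter windows of the same length, 6.02% held the E-box and 0.113% the stress element. The octamer ATGCAAAT was in none of the 5 windows and in 1.60% of all windows. The interferon-type repeat, GAAA and GAAA with any 2 bases between, was in the window of Tnfrsf17 alone among the 5 and in 2.98% of all. A match describes letters and is not evidence of binding.

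The wider plasma cell programme was not uniformly higher. Of 30 genes tested for plasma cell identity and antibody secretion, 5 rose in the adult arrays, 0 fell and 25 missed the threshold. Their median difference was 0.44, against -0.17 over all 13335 genes tested. In the fit over all genes with limma 1.41% rose and 4.57% fell at an adjusted p under 0.05, and at an unadjusted p under 0.05 the list had 10 higher and 1 lower. Pou2af1, a coactivator of immunoglobulin gene transcription, rose by 4.51 (SE 0.64, adjusted p = 0.0111). Slamf7, a surface receptor of plasma and cytotoxic cells, rose by 3.16 (SE 0.63, adjusted p = 0.032), and Irf4, a transcription factor needed for plasma cell differentiation, by 2.83 (SE 0.48, adjusted p = 0.0189). Eaf2, a transcription elongation factor, rose by 2.67 (SE 0.62, adjusted p = 0.0499) with all E18 values under the floor, which makes it at least 3.76-fold higher. It entered the test through the adult arrays alone, and its call was lost in 9 of 18 other settings, including no filter and the 60th percentile filter.

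Irf4 stood at 8.77, 9.61 and 10.40 in adult replicates 1, 2 and 3, against 6.38, 6.81 and 7.09 in the E18 arrays, with no overlap. Pou2af1 stood at 11.75, 11.40 and 9.59 in the adult arrays, against 6.06, 5.94 and 7.22 in the E18 arrays, and adult replicate 3 was the lowest adult array. The fifth gene that rose was Sec11c, a subunit of the signal peptidase (1.52, adjusted p = 0.0297). The list also holds general secretory genes that many cells use. Xbp1, the transcription factor of the unfolded protein response, averaged 0.48 higher (adjusted p = 0.301), Hspa5, its chaperone target, 0.58 higher (adjusted p = 0.312), and Prdm1, the plasma cell repressor, had a difference of -1.34 (adjusted p = 0.197). Xbp1, Hspa5 and Prdm1 were chosen for mention after their values were seen. Leaving out single arrays gave 7 higher (adult replicate 3), 3 (adult replicate 1 or E18 replicate 3) or 0 (adult replicate 2, E18 replicate 1 or E18 replicate 2).

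Most other immunoglobulin genes were brighter in the adult arrays. Of 16 on the array, 12 were higher in the adult arrays without overlap (9.60% of all genes), but only 6 reached the floor on 3 arrays and were tested. Some of the 12 differed mostly under the floor. With low values raised to it the differences of Igk-V21, Igkv19-93 and Igkv5-39 were 0.11, 0.33 and 0.36, against 7.75 for Igkv8-30. Of these 6, 4 rose and 0 fell, all kappa variable segments, and since they passed the floor mostly through the adult arrays this count is no support. Igkv8-30 stood at 13.59, 14.08 and 14.58 in adult replicates 1, 2 and 3, against 4.08, 4.47 and 7.62 in E18 replicates 1, 2 and 3, a difference of 8.70 (SE 0.88, adjusted p = 0.0046). Igkv6-14 was at least 11.1-fold higher (adjusted p = 0.0338), Igkv15-103 at least 3.08-fold (adjusted p = 0.0166) and Igkv4-68 at least 2.23-fold (adjusted p = 0.0463). Igkv6-14, Igkv15-103 and Igkv4-68 reached the floor on the adult arrays alone and entered the test through them, so their p-values are no support. With low values raised to the floor, the calls of Igkv15-103 and Igkv4-68 were lost. Of the 4, only Igkv8-30 passed in each of the other settings run. Leaving out single arrays gave 4 higher (adult replicate 3), 2 (adult replicate 1 or E18 replicate 3) or 1 (adult replicate 2, E18 replicate 1 or E18 replicate 2).

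Some B cell genes were higher too, and most of the list was lowest among the adult arrays in replicate 3. Of 22 tested, 7 rose, 0 fell and 15 missed the threshold, against 1.41% of all genes tested that rose. The median of the B cell list was 3.01, and 16 of its genes were higher at an unadjusted p under 0.05. Blnk, an adaptor of the B cell receptor, rose by 4.94 (SE 0.54, adjusted p = 0.00577), Fcmr, the IgM Fc receptor, by 4.84 (SE 1.04, adjusted p = 0.0393), the inhibitory receptor Cd22 by 4.02 (SE 0.72, adjusted p = 0.0227) and the transcription factor Spib by 4.0 (SE 0.67, adjusted p = 0.0184). The summed signal of the 24 genes on the array was 55968, 54656 and 12141 in adult replicates 1, 2 and 3, against 4253, 4042 and 6002 in the E18 arrays. Adult replicate 3 was the lowest adult array for 18 of the 22 genes. The list's median difference was 4.06 in replicates 1 and 2 and 0.36 in replicate 3. Leaving out single arrays gave 18 higher (adult replicate 3), 4 (E18 replicate 3), 3 (adult replicate 1), 2 (adult replicate 2 or E18 replicate 1) or 1 (E18 replicate 2).

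Adult replicate 3 thus had lower B cell signal than the other adult arrays, while its Jchain, Igha, Mzb1 and Tnfrsf17 signals were near theirs. Ms4a1, the B cell surface protein CD20, stood at 12.77, 13.12 and 8.74 in adult replicates 1, 2 and 3 and at 6.89, 6.83 and 9.59 in E18 replicates 1, 2 and 3. It was chosen after its values were seen, and its difference of 3.77 did not pass (adjusted p = 0.134). Relative to the mean of adult replicates 1 and 2, adult replicate 3 had a median of -2.36 over the B cell genes tested, against 0.46 for Jchain, -0.01 for Mzb1 and 0.31 for Tnfrsf17. Other members were higher there, Derl3 by 0.79, Tnfrsf13b by 0.87, and 6 Ighm probe sets and Pigr by more than 3. The plasma cell list was mixed, with a median of 0.58 over 30 genes tested. Adult replicate 3 was the highest adult array for 17 of these and the lowest for 7. This difference between the lists is within 1 array and was not tested.

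T and NK cell genes, as markers of other cells of the lung, followed the B cell genes. Of 17 tested, 8 rose and 0 fell, with a median of 3.84, among them Klrd1 (5.49, adjusted p = 0.00303), Icos (5.36, adjusted p = 0.0346), Ctsw (at least 15.7-fold, adjusted p = 0.0323) and Cd2 (4.39, adjusted p = 0.0109). Ctsw, and Ncr1 among the other genes that rose, reached the floor on the adult arrays alone and entered the test through them. Over all genes tested, 1.41% rose. The summed signal of 19 genes was 82763, 65940 and 8653 in adult replicates 1, 2 and 3, against 2913, 3033 and 4065 in the E18 arrays. Leaving out single arrays gave 15 higher (adult replicate 3), 4 (E18 replicate 3), 3 (adult replicate 1), 2 (adult replicate 2) or 1 (E18 replicate 1 or E18 replicate 2). Of 17 macrophage genes 0 passed in either direction with limma, and 2 were higher and 4 lower at an unadjusted p under 0.05. Without adult replicate 3 there were 1 higher and 4 lower, and without E18 replicate 3 there was 1 higher. After median centring 2 were higher, and with the poly-A batch as a block 2 were higher and 1 lower. Their summed signal was 108480, 100214 and 67631 in the adult arrays, against 54124, 48164 and 78412 in the E18 arrays, with Csf1r (0.55, adjusted p = 0.63) and Cd14 (0.42, adjusted p = 0.531) among the brightest. The part of these other cells in the results for the 9 genes was not tested.

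**Figure D3:**
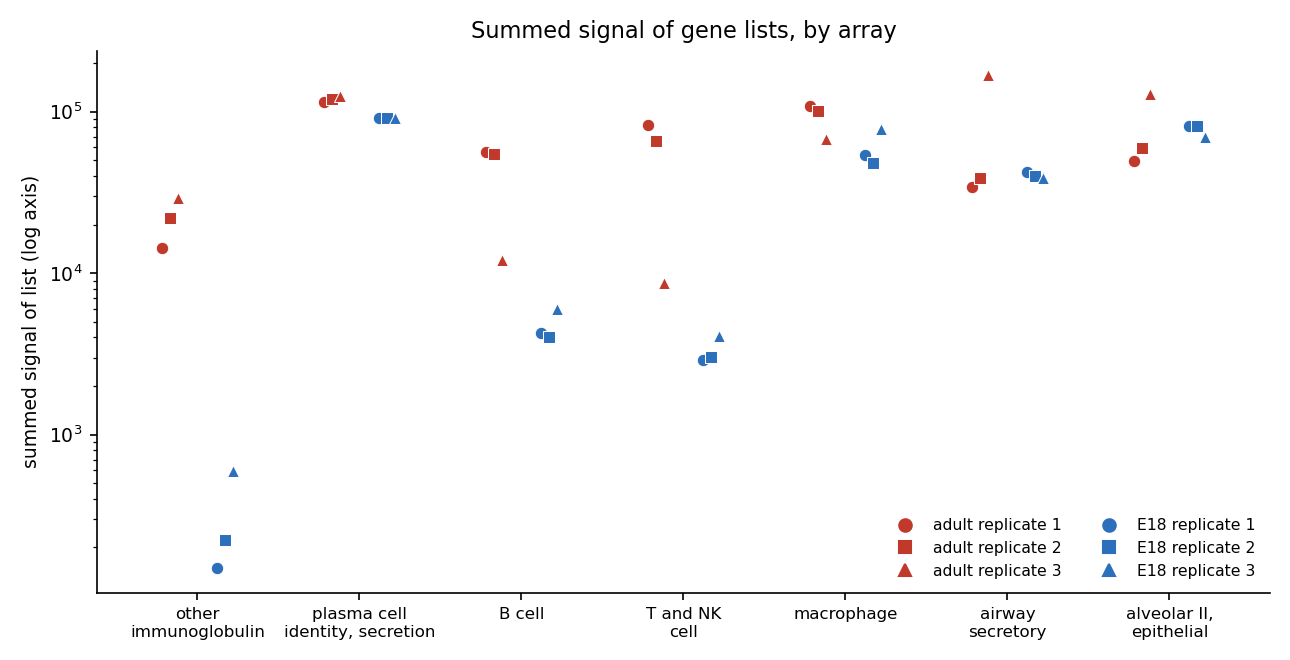
Summed linear signal, on a log axis (y axis), of the genes of each list (x axis) in each adult array (red) and E18 array (blue), with replicates 1, 2 and 3 as circles, squares and triangles. Adult replicate 3 is low for B cell genes (12141) and T and NK cell genes (8653) and high for airway secretory genes (167685), and it is the highest array for the other immunoglobulin genes (29303). In the adult arrays most of the other immunoglobulin sum is signal of Igkv8-30, at 14.58 on the log2 scale in adult replicate 3.

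E18 replicate 3 carried Jchain and Igha signal well above the other E18 arrays. Relative to the mean of E18 replicates 1 and 2 it was higher by 4.79 for Jchain, by 4.46 to 6.91 for the 3 Igha probe sets and by 3.34 for Igkv8-30, but by 0.26 or less for Mzb1, Derl3, Tnfrsf17 and Tnfrsf13b. Other members lay between, with -0.99 to 2.85 for the Ighm probe sets. It was 0.22 to 1.67 for Iglv1 and 0.84 to 2.74 for Pigr, whose E18 values were all under the floor. The median difference between E18 replicate 3 and the mean of E18 replicates 1 and 2 was 0.13 over the plasma cell genes tested, 0.61 over the B cell genes and 0.45 over the T and NK cell genes. E18 replicate 3 still lay 5.38 below adult replicate 3 for Jchain and 2.29 to 3.62 below it for Igha. Both replicate 3 arrays share the high poly-A spike-in signal, and its part in this was not tested.

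Pigr was the only member on the epithelial side, and nearly all of its signal above the floor was in 1 array. Probe set 1450060_at stood at 5.41, 3.30 and 11.56 in adult replicates 1, 2 and 3, against 1.85, 2.26 and 4.80 in E18 replicates 1, 2 and 3. Probe set 1455490_at stood at 5.99, 5.39 and 11.45 in the adult arrays, against 4.79, 4.08 and 5.28 in the E18 arrays. Adult replicate 3 lay 5.50 and 5.39 above its floor, and among the other arrays only adult replicate 1 reached its floor, in 1455490_at, by less than 0.5. The mean differences of 3.78 and 2.89 were 1.38 and 0.97 without adult replicate 3, so they rest on that array. The difference was 2.29 and 1.26 in replicates 1 and 2 and 6.75 and 6.17 in replicate 3. In 1450060_at replicates 1 and 2 of both groups were under the floor, so the 2.29 lies between undetected values. With low values raised to the floor, the differences of means were 1.76 and 1.78.

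Most airway secretory genes were high in the same array, with adult replicate 3 the highest adult array for 10 of 11 tested. Their summed signal over 16 genes was 34031, 38580 and 167685 in adult replicates 1, 2 and 3, against 42275, 39940 and 38559 in the E18 arrays. All 16 were at or above the floor in adult replicate 3, against 9 to 10 in each of the other 5 arrays. Of these 11, 1 rose and 0 fell. It was Slpi, an inhibitor of neutrophil elastase and the exception, at 13.54, 13.64 and 12.35 in adult replicates 1, 2 and 3, against 10.06, 10.15 and 11.83 in the E18 arrays (2.49, SE 0.57, adjusted p = 0.0481). Its call was lost in 10 of 18 other settings, among them leaving out either of adult replicates 1 and 2 or either of E18 replicates 1 and 2, quantile normalization, no filter, no intensity trend, the replicate block and the poly-A batch block. Scgb1a1, the club cell secretoglobin, stood at 13.74, 13.54 and 15.03 in the adult arrays, against 12.17, 12.09 and 13.19 in the E18 arrays (adjusted p = 0.104). The part of airway cells in the Pigr signal was not tested.

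Alveolar and general epithelial genes were also brighter in adult replicate 3, with a summed signal of 49696, 59698 and 128116 in adult replicates 1, 2 and 3, against 81317, 81577 and 69179 in the E18 arrays. Adult replicate 3 was the highest adult array for 14 of the 16 tested. Of these 16, 1 fell in the adult arrays, Cldn18, a tight junction protein of the alveolus (-2.99, SE 0.37, adjusted p = 0.00857), and 0 rose. The Cldn18 call was lost without E18 replicate 1 or E18 replicate 2. Leaving out adult replicate 3 gave 9 lower, and leaving out E18 replicate 1 or E18 replicate 2 gave 0. The other two of the 16 were Napsa, a protease of surfactant processing chosen after its values were seen, at 11.75, 13.17 and 12.70 in adult replicates 1, 2 and 3, against 12.06, 12.04 and 11.92 in the E18 arrays, and Sftpc. Sftpc, the surfactant protein of type II cells, stood at 14.67, 14.50 and 14.52 in the adult arrays, against 14.05, 13.90 and 14.17 in the E18 arrays (adjusted p = 0.258).

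The tested genes outside the set closest to Pigr across the 6 arrays were Bpifb1, Scgb3a1, Pcp4l1, Sult1d1 and Cyp2b10. The measure was the root mean square difference between departures from each gene's own mean, which was 0.56, 0.57, 0.69, 0.70 and 0.80 log2 units. Bpifb1, a secreted airway defence protein, stood at 6.45, 6.01 and 11.31 in adult replicates 1, 2 and 3, against 5.22, 5.60 and 5.12 in the E18 arrays. Scgb3a1, a secretoglobin of airway cells, stood at 8.79, 7.25 and 14.05 in the adult arrays, against 7.94, 7.68 and 8.62 in the E18 arrays. In all 5 adult replicate 3 was the brightest array. By the same measure the tested genes outside the set closest to Jchain were Igkv8-30 (0.56), Igkv15-103 (1.16), Ccr7 (1.60), Igkv6-14 (1.73) and Ifi202b (1.75). Igha was at 0.97, Iglv1 at 1.81, Ighm at 1.96, Mzb1 at 2.62, Tnfrsf17 at 3.26, Derl3 at 3.55 and Tnfrsf13b at 4.46.

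**Figure D4:**
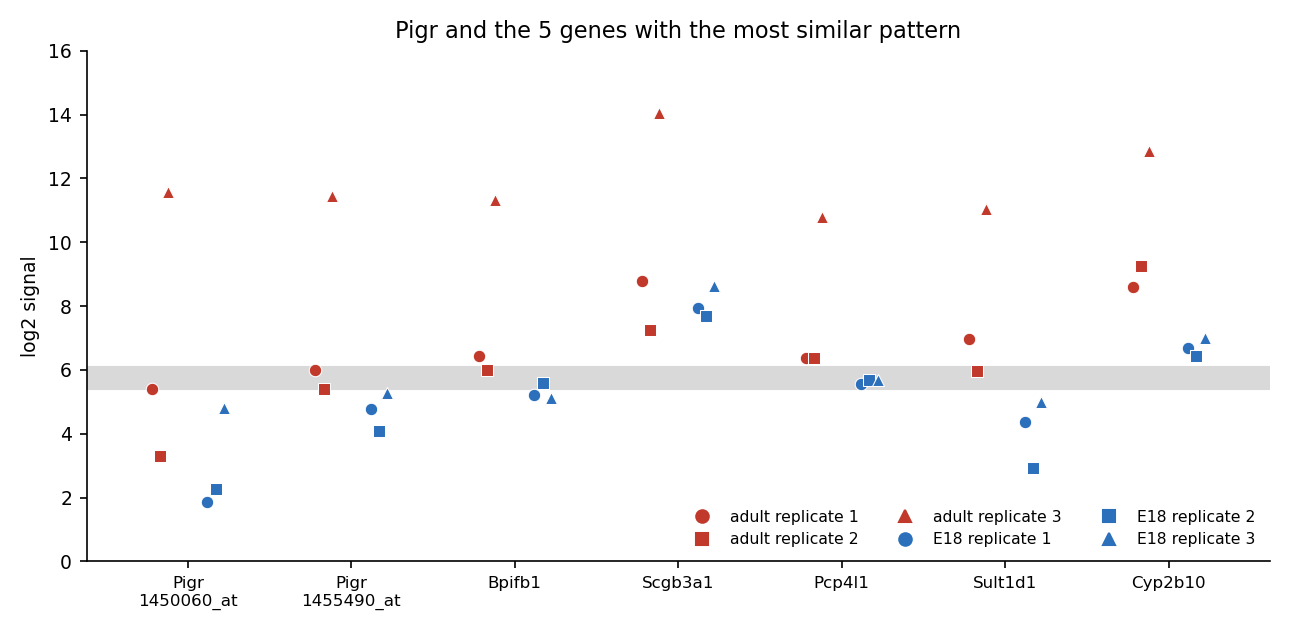
Log2 signal (y axis) of both Pigr probe sets and of the 5 tested genes outside the set with the most similar pattern over 6 arrays (x axis), in adult arrays (red) and E18 arrays (blue), with replicates 1, 2 and 3 as circles, squares and triangles and the range of detection floors as a grey band. Adult replicate 3 is the brightest array for every gene shown, at 11.56 and 11.45 for Pigr and 14.05 for Scgb3a1.

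Genes for carrying IgA across the epithelium and for controlling Pigr did not pass. Of 22 tested, among them Rab5a, a regulator of early endosomes (-0.29, adjusted p = 0.559), and Irf1, an interferon-response factor (0.24, adjusted p = 0.834), 0 passed in either direction with limma, and 1 was higher and 3 lower at an unadjusted p under 0.05. The median was 0.08. Without adult replicate 3 there were 2 higher and 6 lower, and without adult replicate 1 there was 1 higher. Rab25, a GTPase of apical recycling, stood at 6.74, 5.84 and 9.55 in adult replicates 1, 2 and 3, against 9.76, 9.79 and 9.63 in the E18 arrays (adjusted p = 0.168). Il17rc, a chain of the IL-17 receptor, stood at 5.27, 4.80 and 9.55 in the adult arrays, against 8.52, 7.55 and 7.36 in the E18 arrays (adjusted p = 0.586). The values of both were known when they were picked.

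Signals for IgA switching, survival and homing did not follow the antibody genes. Of 10 tested, 2 fell in the adult arrays, 0 rose and 8 missed the threshold. The median was 0.14. Vcam1, the endothelial and stromal adhesion molecule that binds integrins of leukocytes, stood at 8.31, 7.81 and 8.73 in adult replicates 1, 2 and 3, against 11.65, 11.82 and 10.72 in the E18 arrays (-3.11, SE 0.41, adjusted p = 0.00963). Cxcl12, a stromal chemokine that retains plasma cells, stood at 7.24, 6.48 and 6.88 in the adult arrays, against 9.99, 9.76 and 9.21 in the E18 arrays (-2.78, SE 0.38, adjusted p = 0.0104). Both calls were lost without E18 replicate 1 or E18 replicate 2. Tnfsf13b, the survival factor BAFF, did not pass (1.48, adjusted p = 0.225), and Ccl28, the epithelial chemokine for IgA plasma cells, had a difference of 0.00 (adjusted p = 0.998), and both were picked with their values known.

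Of 10 other immunoglobulin receptors tested, 1 rose, Fcmr, which is also in the B cell list, 0 fell and 9 missed the threshold. The median was 0.51. Without adult replicate 3 there were 2 higher and 2 lower. The Fcmr call was lost on leaving out any single array other than adult replicate 3. Lgals3, an IgE-binding lectin also made by macrophages and epithelium, was the brightest of the list, at 14.30, 13.98 and 13.85 in adult replicates 1, 2 and 3, against 13.19, 13.12 and 13.79 in the E18 arrays (adjusted p = 0.238). Fcgrt, the neonatal Fc receptor that carries IgG and not IgA, had a difference of -1.47 (adjusted p = 0.196) and was chosen after its values were seen.

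Of the sort genes and the genes named per list by the rule given below, 22 passed with limma. Sec11c is not counted among these. Leaving out single arrays lost 18 of these 22 calls (E18 replicate 1 or E18 replicate 2), 13 (adult replicate 2), 10 (adult replicate 1), 7 (E18 replicate 3) or 0 (adult replicate 3). Igkv8-30, Blnk, Klrd1 and Lyz2 passed in each setting run.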

How the data were processed

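RNA from 3 adult and 3 E18 samples was amplified with a kit for repeated cDNA synthesis, labelled with biotin and hybridised to 1 array per sample, per the labels' protocols. The authors deposited intensity values on a linear scale, 1 per probe set. The submitters' processing notes name MAS5 and Affymetrix Expression Console, and versions were not given in the sources used here. After trimming 2% of values at either end, array means were 500.003 or 500.004, so the deposited intensity had been scaled.

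Signals were log2 transformed with no pseudocount. Of 45101 probe sets, 64 were controls, 34945 had exactly 1 symbol in the array's gene table and 932 had several. Members are shown by probe set. For the fit a gene was represented by its brightest probe set on average, tested if at or above its array's 40th percentile on at least 3 arrays. Adult and E18 arrays were compared by limma 3.58.1 (R 4.3.3) with an intensity trend and Benjamini-Hochberg adjustment over 13335 genes, two-sided, at an adjusted p under 0.05, and SE is limma's moderated standard error. The steps were tested on simulated data. "At least" folds set values under the floor to it. The number of arrays limits the precision, and arrays have no read depth.

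The members and lists were chosen with earlier results of these data known, so no p was adjusted within a list. Members have no test. Other genes were named by a rule: the 4 sort genes, up to 4 called genes per list by size or up to 2 of the brightest where fewer than 2 were called, and the 5 nearest to Jchain and to Pigr without predicted clones. The nearest were sought among tested genes outside the set. The text says which genes fall outside it. Nothing in the labels says that replicates came from separate litters, so p-values measure the spread between these samples. Alternatives were other scalings, filters, blocks and left-out arrays.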

Additional observations from a re-analysis of the deposited data

How the results depend on the processing

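Under 15 other settings per probe set, the differences of the 24 member probe sets gave 360 values. Of these, 333 moved by less than 1 SD of the replicates, 27 moved by more and 0 changed sign among those without overlap. The replicate block and the poly-A batch block cannot change a difference of means in this design. Leaving out 1 array of a group can move its mean by only a part of that group's SD. Many of the 333 were therefore fixed in advance, and the count is no measure of robustness. With low values raised to the floor, the difference was 5.02 for the brightest Iglv1 probe set and 1.69 for Tnfrsf17. Quantile normalization moved the median difference of all genes to -0.05, and centring on medians to -0.02, against -0.17.

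Over all genes, 188 rose and 610 fell. Whether samples with the same replicate number were paired is not known here. The correlations of their deviations from the group means were 0.04, -0.14 and -0.06 for replicates 1, 2 and 3. With so few arrays per group these values cannot decide it, and both replicate 3 arrays share the high poly-A spike-in signal. With the replicate block 98 rose and 394 fell, with 4 higher in the B cell list and 3 in the plasma cell list. In replicates 1 and 2 alone 801 rose and 2195 fell, with 17 B cell genes higher, 1 plasma cell gene lower, and 2 higher and 7 lower for transcytosis and Pigr regulation. E18 replicates 1 and 2 lay close together for many genes, such as Dnajb9 (13.03 in both) and Txndc5 (11.63 in both) of the plasma cell list. For others they did not, such as Igkv6-14 (-0.23 and 4.26, under the floor). The main fit counts them as separate samples, and whether they are independent was not tested. With E18 replicates 1 and 2 averaged as 1 sample 22 rose and 41 fell, with 1 B cell gene, 0 plasma cell genes and 1 other immunoglobulin gene higher. The count of other immunoglobulin genes higher was 2 with the 60th percentile as filter and 2 with low values raised to the floor. In the transcytosis list 1 gene was higher after quantile normalization, 1 after median centring and 1 with the poly-A batch as a block, and 1 was lower after median centring, 1 with the 60th percentile filter and 1 with a pseudocount of 16.

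Leaving out 1 array gave 24 to 701 genes higher and 42 to 2069 lower, 1 to 18 B cell genes higher, 1 to 4 other immunoglobulin genes higher, 0 to 7 plasma cell genes higher and 0 to 1 lower, and 0 to 2 transcytosis genes higher and 0 to 6 lower. Genes that did not pass turned sign. Irf1 was at -0.10 after quantile normalization, -0.21 without adult replicate 1 and -0.19 without E18 replicate 3, with a highest value of 0.66 when 1 array was left out, and Rab5a at 0.01 in replicate 3 alone. After quantile normalization Csf1r was at -0.05, Cd14 at -0.05 and Sftpc at -0.08. Leaving out 1 array put Csf1r between -0.05 and 1.20, and it was at -0.85 in replicate 3 alone, Cd14 at -0.49 in replicate 3 alone, and Sftpc at -0.38 with probe sets averaged. The causes were not tested.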
